A study of Arabidopsis thaliana with 12 samples.

Results

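The 4 libraries of the third biological repeat of an Arabidopsis thaliana leaf experiment were set against the 8 libraries of repeats I and II, out of 12 libraries in all. They were picked by the repeat number in the library names, after it had been seen in these data that repeat III stood apart. Every difference between repeat III and the others is therefore given as a description, with its values and its spread, and not as a test. Leaves of 2 Columbia-0 lines were sequenced, cat2-2 gox1 and cat2-2 gox2, below cat2 gox1 and cat2 gox2. Both lines carry a mutation in CATALASE 2, and they differ in which GLYCOLATE OXIDASE gene is mutated. Plants with either mutation alone and plants with neither were not analysed here. Plants of the high CO2 group were kept at 3000 ppm CO2 in light of 120 µmol per square metre and second. The high light group came from the same growth conditions and was then held for 3 h in light of 1200 µmol at 400 ppm CO2; the labels write the area unit of that light as per metre. Each library held the pooled middle-aged leaves of 15 plants that were 3 weeks old, and per the labels the entire set-up was repeated to obtain the 3 repeats. Each line and condition thus has 1 library per repeat.

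Repeats of a plant experiment share the line and the treatment but not the plants, the sowing or the day. Several leaf programmes are known to respond strongly to light, temperature, nutrient supply and leaf age. One is flavonoid synthesis, which turns phenylalanine into flavonols and the red anthocyanin pigments of stressed leaves, and whose late enzymes are switched on by MYB factors such as PAP1 and MYB90 together with the bHLH factor TT8. Others are the defence programmes driven by salicylate and jasmonate, the dehydration programme of abscisic acid, and the opposing programme of growth, in which ribosomes are made and cell walls loosened. Glycolate oxidase and catalase themselves are peroxisomal enzymes of photorespiration: the oxidase releases hydrogen peroxide and catalase removes it.

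Library totals lay between 19571516 and 25314811 counts, and 18967 genes had enough counts to be tested. Levels are given as CPM, the counts of a gene scaled to a common library total. The defining leaf markers checked the labelled tissue: RBCS1A, the small subunit of Rubisco, lay between 8647 and 33180 CPM, and none of 4 root markers had enough counts to be tested. GOX1 lay between 128 and 284 CPM in the cat2 gox1 libraries and between 943 and 2197 in those of cat2 gox2, and CAT2 lay between 44 and 120 CPM in all 12. GOX2 lay between 451 and 1199 CPM in cat2 gox1 and between 6.98 and 16.8 in 5 of the 6 libraries of cat2 gox2. The library labelled cat2 gox2 after high light, repeat II, had 122 CPM of GOX2, which goes against its label in part. It belongs to the libraries that repeat III is compared with, and the counts of displaced genes, of opposite sides and of line differences after high light are given with and without it below. Without it the light response of cat2 gox2 was called in 10153 genes in place of 10793. In repeat III, GOX1 and GOX2 went the way of the line's label. For CAT2 there is no line without the mutation here to compare with.

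Repeat III stood apart under high CO2 in both lines, after high light in cat2 gox1 to a lesser degree, and not in cat2 gox2 after high light. In a multidimensional scaling of the 12 libraries, the first dimension held 81.9% of the variance and separated the conditions. On the second, which held 5.61%, the high CO2 libraries of repeat III lay at -1.2 (cat2 gox1) and -1.05 (cat2 gox2), while the other 4 of high CO2 lay between 0.30 and 0.74. After high light, repeat III of cat2 gox1 lay at -0.92 against -0.27 and -0.24 for repeats I and II. Repeat III of cat2 gox2 lay at 0.31, beside 0.34 for repeat I and away from 0.90 for repeat II.

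**Figure D1:**
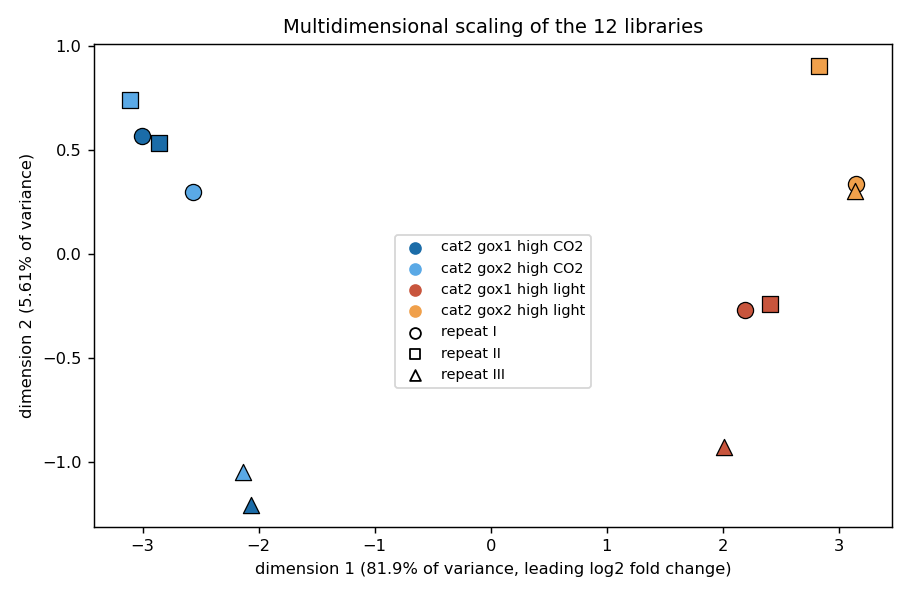
Multidimensional scaling of the 12 libraries on leading log2 fold changes, with the first dimension (81.9% of variance) on the horizontal axis and the second (5.61%) on the vertical axis. Colours are the 4 groups and shapes the 3 repeats. The 3 triangles of repeat III at -1.2, -1.05 and -0.92 on the second dimension lie below the circles and squares of their groups, and the fourth, of cat2 gox2 after high light, lies at 0.31 beside repeat I.

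The same order held in pairs of libraries of 1 group. In cat2 gox1 under high CO2, 1.96% of genes differed at least 2-fold between repeats I and II, against 13.4% between I and III and 14.5% between II and III. In cat2 gox2 under high CO2 these shares were 2.80%, 9.25% and 10.2%. In both lines under high CO2 repeat III was thus the distant library. In cat2 gox1 after high light the shares were 3.71%, 4.93% and 5.90%. In cat2 gox2 after high light, repeats I and III were the closest pair, with 2.34% against 4.73% for I and II and 4.05% for II and III.

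The displacement of a gene is its log2 level in repeat III minus that in repeats I and II. Across the 18967 genes, the displacements of the 2 lines under high CO2, which share no library, had Pearson's r = 0.765 and Spearman's rho = 0.777. After high light the displacements of the lines had r = 0.23 and rho = 0.192. Between conditions, r lay between 0.265 and 0.423. For repeat II minus repeat I the same 6 pairs of groups gave r between -0.136 and 0.131. These are values across genes, which are not independent replicates, and no p is given. The displacement under high CO2 in 1 line also had r = 0.417 and 0.458 with the high light response that repeats I and II showed in the other line, which share no library either. The displacement after high light gave r = -0.038 for cat2 gox1 and 0.238 for cat2 gox2 in the same comparison. Set-up effects of repeats I and II that the lines share enter both sides of these comparisons. They enter with like sign under high CO2 and with opposite sign after high light. How far this moves r was not tested.

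**Figure D2:**
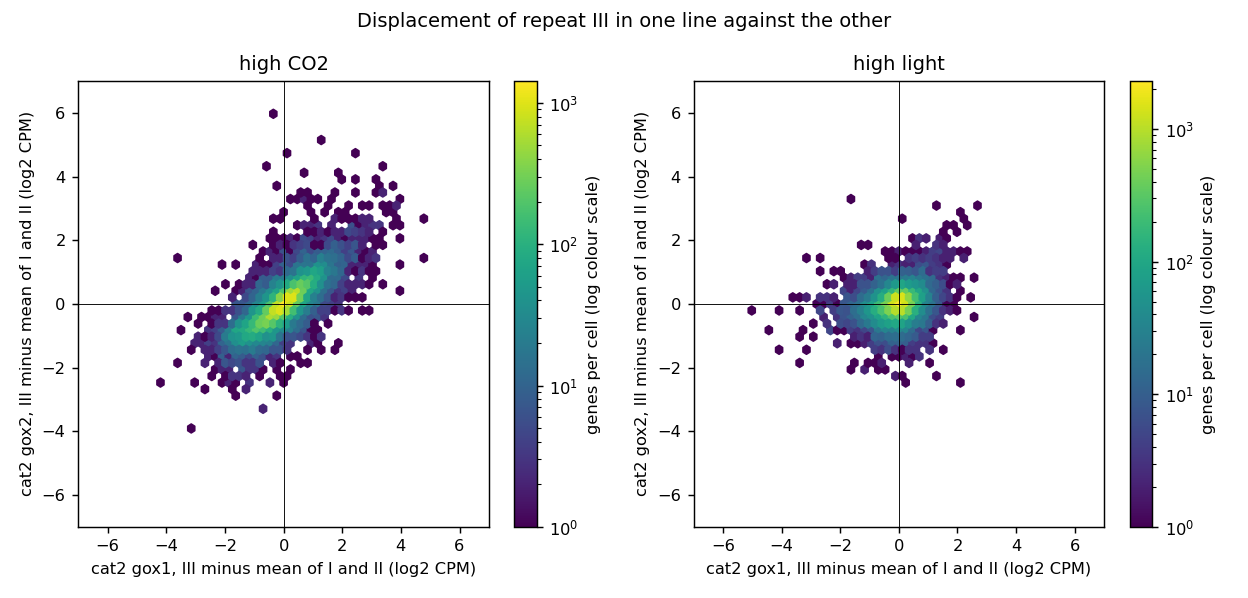
Each hexagonal cell counts genes by their displacement, log2 CPM in repeat III minus the mean of repeats I and II, in cat2 gox1 on the horizontal axis and cat2 gox2 on the vertical axis, with colour on a log scale. Under high CO2 (left) the 18967 genes form a band along the diagonal, with r = 0.765, and after high light (right) they form a rounder cloud, with r = 0.23.

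A gene is said here to stand above when its CPM in repeat III was higher than in both other repeats in every group counted, and below when it was lower than in both. In all 4 groups, 1553 genes stood above, 8.19% of those tested, and 1032 stood below, 5.44%. Of these, 173 stood above (0.912%) and 120 below (0.633%) with a fitted difference of at least 2-fold, together 1.54%. Under high CO2, 31.9% of genes stood above and 34.1% below in both lines, together 66.1%. Under high CO2 alone, 899 genes stood above (4.74%) and 1149 below (6.06%) in both lines, with a joint fitted difference of at least 2-fold. After high light 122 (0.643%) and 132 (0.696%) did so. Without the library labelled cat2 gox2 after high light, repeat II, the counts in either direction went from 293 to 308 over all groups and from 254 to 332 after high light. Leaving out 1 library at a time, the 2-fold count over all groups was 578 without repeat III of cat2 gox1 after high light, 630 without repeat I of cat2 gox2 after high light and 830 without repeat III of that group, and the count after high light was 528, 516 and 1031 without the same libraries. Since repeat III was chosen for its distance, these shares are the level beside which each gene list below is read and support nothing themselves. The count of genes that edgeR's quasi-likelihood fit puts past an adjusted p of 0.05 (Benjamini-Hochberg) depended more on single libraries, and the counts by fold and range were put first after this had been seen. It was 2750 (14.5%; 7.24% higher and 7.25% lower) over all groups, 30 without repeat III of cat2 gox1 under high CO2, 0 without repeat III of cat2 gox2 under high CO2, between 831 and 1245 without any 1 of the other 4 high CO2 libraries, 1058 without repeat II of cat2 gox2 after high light and 4863 without repeat I of that group. Under high CO2 it was 6310 (33.3%), 86 without repeat III of cat2 gox1 and 2993 without that of cat2 gox2, and after high light it was 0 (0%), with 480 without repeat I of cat2 gox2.

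The flavonoid and anthocyanin enzymes stood above together in every group. Of 17 tested enzymes, 15 stood above in all 4 groups, where 8.19% of all genes did, and none stood below. The other 2, PAL2 and C4H, enzymes of the first steps from phenylalanine, stood above under high CO2 only. The median displacement of the 17 was 1.11 over all groups, 1.02 under high CO2 and 1.22 after high light on the log2 scale, against -0.01, -0.01 and 0.00 over all genes tested. F3H, a further enzyme on the list, had too few counts to be tested. The list's group medians under high CO2 were 1.03 for cat2 gox1 and 0.924 for cat2 gox2, and after high light 1.22 and 1.47. No other of the 24 pathway lists had all 4 medians as high as 0.924, which is this list's own lowest.

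TT4 (AT5G13930), the chalcone synthase that starts the pathway, stood at 812, 622 and 1447 CPM in repeats I, II and III of cat2 gox1 under high CO2 and at 881, 723 and 1504 CPM in cat2 gox2. After high light it stood at 234, 123 and 396 CPM in cat2 gox1 and at 163, 95.3 and 346 CPM in cat2 gox2. Repeat III was the highest library in each group and repeat II the lowest, and the groups of the 2 conditions did not overlap. Its displacement over all groups was 1.12 ± 0.18 (log2 difference ± SE). DFR (AT5G42800), the reductase at the entrance to the anthocyanin branch, had 262, 203 and 509 CPM in cat2 gox1 under high CO2 and 254, 222 and 449 CPM in cat2 gox2. In the high light libraries it had 119, 43.4 and 227 CPM in cat2 gox1 and 92, 38.4 and 190 CPM in cat2 gox2. Its displacement was 1.02 ± 0.36 under high CO2 and 1.51 ± 0.36 after high light. LDOX, the next enzyme, had a displacement of 1.31 ± 0.28 over all groups.

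The largest displacements of the list were those of TT7 (AT5G07990), the flavonoid 3'-hydroxylase, with 1.55 ± 0.29 over all groups, and of enzymes that decorate or carry anthocyanins. TT7 had 91.8, 70 and 238 CPM in cat2 gox1 under high CO2, 119, 74.2 and 254 CPM in cat2 gox2, 39.1, 12.2 and 64.7 CPM in cat2 gox1 after high light, and 25.9, 10.5 and 68.2 CPM in cat2 gox2. Repeat III held more than either other repeat in each group. GSTF12, a glutathione transferase needed to move anthocyanins into the vacuole, had a displacement of 1.39 ± 0.23. UF3GT and UGT75C1, which attach sugars to anthocyanins, had 1.38 ± 0.26 and 1.34 ± 0.21, and AT5MAT, which adds a malonyl group, had 1.18 ± 0.25. The enzymes of the flavonol branch were displaced less, with 0.40 ± 0.11 for FLS1, the flavonol synthase, and 0.32 ± 0.11 for UGT78D1, a flavonol rhamnosyltransferase. PAL1, which opens the whole pathway, had 0.65 ± 0.12.

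Repeats I and II were also ordered for these enzymes. In 14 of the 17, the level ran from repeat III to I to II in all 4 groups, an order that 268 of the 18967 genes tested (1.41%) showed. This was noticed in the values and then counted, and repeat III being highest is part of how the genes are described above. The median difference of repeat II minus repeat I over the list was -0.67 (log2), against -0.01 over all genes tested. No enzyme of the list passed edgeR's quasi-likelihood test of repeat II against repeat I with Benjamini-Hochberg adjustment at 0.05, which no gene of the 18967 did.

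The plot of 8 genes by library shows TT4 and DFR beside MYB90, ELIP1, NUDT24, RPS6, PCNA1 and DELTA-TIP, all described here or below.

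**Figure D3:**
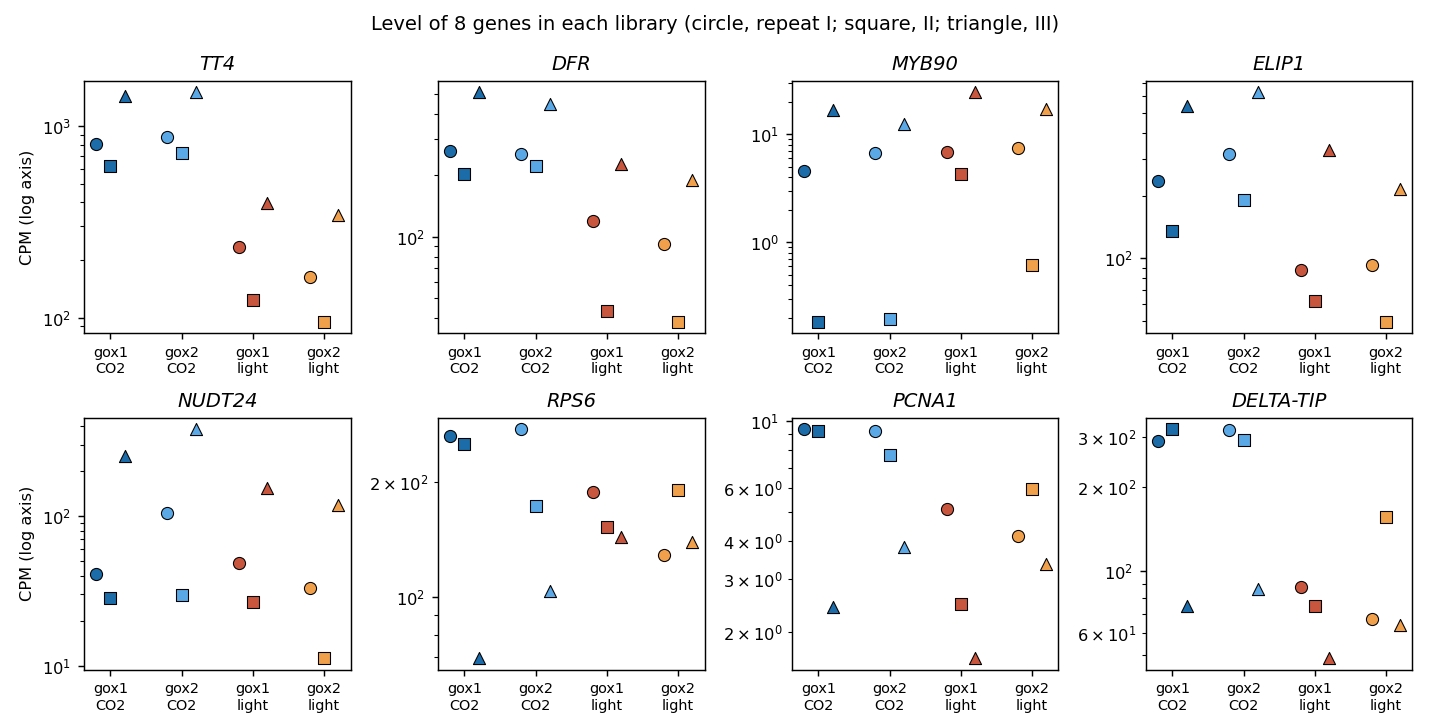
CPM on a log axis for 8 genes in each of the 12 libraries, with 1 panel per gene, the 4 groups along the horizontal axis, and circles, squares and triangles for repeats I, II and III. In the panels of TT4, DFR, MYB90, ELIP1 and NUDT24 the triangle is the highest point of every group, and in those of PCNA1 and DELTA-TIP it is the lowest, while for RPS6 it lies far below the others under high CO2 (69.5 against 263 and 251 CPM in cat2 gox1) and close to them after high light.

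The stretches of 250 bases before the annotated start are printed for TT7, GSTF12 and UF3GT, which had the 3 largest displacements of the list, and for TT4, because the list lay higher as a whole. A pair of letter patterns were searched on both strands, which do not overlap each other in these windows: the G-box CACGTG, a core read by bHLH and bZIP factors, and ACCTACC, a core read by MYB factors. They come from the RefSeq annotation of the TAIR10.1 assembly, in 5′ to 3′ direction of the gene, with matches in capitals. TT7 lies on the plus strand (chr5:2560078-2560327), GSTF12 on the plus strand (chr5:5658166-5658415), UF3GT on the minus strand (chr5:21938397-21938646) and TT4 on the plus strand (chr5:4488226-4488475).
TT7: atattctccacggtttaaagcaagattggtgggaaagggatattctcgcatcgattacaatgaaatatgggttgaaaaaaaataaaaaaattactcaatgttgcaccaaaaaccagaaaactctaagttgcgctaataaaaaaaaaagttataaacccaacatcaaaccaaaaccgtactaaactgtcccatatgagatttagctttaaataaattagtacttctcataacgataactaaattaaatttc
GSTF12: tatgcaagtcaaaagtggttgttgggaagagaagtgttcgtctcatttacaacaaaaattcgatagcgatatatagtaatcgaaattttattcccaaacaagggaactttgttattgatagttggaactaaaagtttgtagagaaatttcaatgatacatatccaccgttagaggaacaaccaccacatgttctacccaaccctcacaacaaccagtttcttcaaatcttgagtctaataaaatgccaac
UF3GT: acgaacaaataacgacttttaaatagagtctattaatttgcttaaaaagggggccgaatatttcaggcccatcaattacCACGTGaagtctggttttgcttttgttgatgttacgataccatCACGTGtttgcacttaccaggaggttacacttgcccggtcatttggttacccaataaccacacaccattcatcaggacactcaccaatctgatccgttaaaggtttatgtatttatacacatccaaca
TT4: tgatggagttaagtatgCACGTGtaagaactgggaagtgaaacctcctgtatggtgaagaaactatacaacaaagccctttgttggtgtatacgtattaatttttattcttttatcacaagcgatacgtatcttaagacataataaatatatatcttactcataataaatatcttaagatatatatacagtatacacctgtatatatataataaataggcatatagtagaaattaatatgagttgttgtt
UF3GT holds 2 matches to CACGTG, TT4 holds 1, and TT7 and GSTF12 hold none; none of the 4 holds ACCTACC. The G-box was found in 4 of the 17 windows of the list and in 1780 of the 27443 windows of that length before nuclear protein-coding genes (6.49%), and ACCTACC in 1 of 17 (5.88%) and in 319 of 27443 (1.16%). A match is a description of letters and not a site in use, and its absence from a window says only that these letters are not there.

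Among the regulators of the pathway and of UV and blue light responses, 6 of 19 tested genes stood above in all 4 groups and none below. The shares of all genes were 8.19% and 5.44%. Under high CO2, 8 of the 19 stood above and 3 below, where 31.9% and 34.1% of all genes did. The group medians there were 0.127 in cat2 gox1 and 0.431 in cat2 gox2. Not every regulator tested is named here. MYB90 (AT1G66390), a MYB activator of anthocyanin genes, had 4.55, 0.185 and 16.9 CPM in cat2 gox1 under high CO2 and 6.78, 0.197 and 12.6 CPM in cat2 gox2. Its high light values were 6.79, 4.33 and 24.4 CPM in cat2 gox1 and 7.48, 0.622 and 17.2 CPM in cat2 gox2. Repeat III was highest in each group, and repeat II came close to no expression in 3 of the 4. Its displacement was 2.24 ± 0.65 over all groups. PAP1 (AT1G56650, also MYB75), its close relative, had 19.5, 17.5 and 60.7 CPM in cat2 gox1 under high CO2 and 35, 14.9 and 82.8 CPM in cat2 gox2, with a displacement of 1.4 ± 0.23 over all groups. TT8 had 1.19 ± 0.26 and GL3, another bHLH partner, 0.86 ± 0.29.

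ELIP1 (AT3G22840), a pigment-binding protein of light-stressed chloroplasts, had 235, 135 and 538 CPM in cat2 gox1 under high CO2 and 316, 191 and 627 CPM in cat2 gox2. After high light it had 87.5, 62 and 330 CPM in cat2 gox1 and 92.7, 49.5 and 215 CPM in cat2 gox2. All 4 repeat III libraries were the highest of their group, with a displacement of 1.66 ± 0.22. Its paralog ELIP2 was displaced after high light, by 0.95 ± 0.13, and by 0.19 ± 0.13 under high CO2. SIGE (SIG5), a chloroplast sigma factor induced by blue light, had 0.82 ± 0.12 over all groups. HY5, a bZIP activator of light responses, had 0.23 ± 0.15, and RUP2, a repressor of UV-B signalling, 0.03 ± 0.10.

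The LBD repressors, which hold down anthocyanin genes when nitrate is plentiful, went the other way. LBD39 had 20.4, 25.5 and 3.41 CPM in cat2 gox1 under high CO2, 15, 20 and 6.63 CPM in cat2 gox2, 5.33, 7.05 and 0.885 CPM in cat2 gox1 after high light, and 1.69, 12.3 and 3.45 CPM in cat2 gox2. Repeat III was the lowest library in 3 groups and lay between the others in the fourth. The displacement was -1.88 ± 0.46 for LBD39, -1.08 ± 0.24 for LBD38 and -0.49 ± 0.22 for LBD37.

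The largest displacement common to all 4 groups among genes of at least 5 CPM was that of NUDT24 (AT5G19470), a Nudix hydrolase. It had 40.8, 28.4 and 252 CPM in cat2 gox1 under high CO2 and 105, 29.8 and 382 CPM in cat2 gox2. In the high light libraries it had 48.3, 26.8 and 155 CPM in cat2 gox1 and 32.8, 11.2 and 118 CPM in cat2 gox2. Repeat III exceeded both other repeats at least 3-fold in each group, and the fitted displacement was 2.47 ± 0.33, a 5.54-fold difference. MBP1, a myrosinase-binding protein of the glucosinolate defence, followed with 2.28 ± 0.31. NATA1, an acetyltransferase of the jasmonate response, had 2.15 ± 0.57, and SAG13, a dehydrogenase of senescing and stressed leaves, 2.01 ± 0.42. BCAT-2, which breaks down branched-chain amino acids, had 1.91 ± 0.48. Of the other 4 in the first 10 beside MYB90, AT2G25625, AT1G34060, AT5G15500 and AT1G76960, displacements lay between 1.95 and 2.07.

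At the opposite end, several of the genes named by rule carry cell wall annotations, which is a reading of the 10 genes and not a test. Of the 10 largest negative displacements, AT1G60590 and AT4G23820 are annotated as pectin lyase-like proteins, AT5G26670 as a pectin acetylesterase, AT5G15780 as an extensin family protein and XTH19 as a xyloglucan endotransglucosylase. DELTA-TIP (AT3G16240), a water channel of the vacuole membrane, had 290, 320 and 74.8 CPM in cat2 gox1 under high CO2 and 318, 294 and 86 CPM in cat2 gox2. Its high light values were 87.8, 75 and 48.8 CPM in cat2 gox1 and 67.5, 155 and 64.2 CPM in cat2 gox2. Repeat III was the lowest library of each group, by a wide margin under high CO2 and narrowly in cat2 gox2 after high light, with a displacement of -1.93 ± 0.27 under high CO2 and -0.77 ± 0.26 after high light. The displacement of AT4G23820 over all groups was -1.36 ± 0.24, that of AT1G60590 -1.44 ± 0.27 and that of DGR2, a DUF642 wall protein, -1.31 ± 0.24. The other members of the 10 were AT4G36850, a PQ-loop protein, with -1.86 ± 0.65, the mitochondrial carrier AT3G51870 with -1.27 ± 0.37, and AT1G11850 with -1.23 ± 0.31.

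The list of growth, auxin and shade genes had 8 of 12 tested members below and 1 above under high CO2, where 34.1% and 31.9% of all genes stood below and above, and 6 below after high light, where 9.99% of all genes did. EXPA8, an expansin that loosens cell walls, had a displacement of -1.85 ± 0.39 over all groups. EXPA1 had 308, 265 and 130 CPM in cat2 gox1 under high CO2, 196, 320 and 87.5 CPM in cat2 gox2, 54.8, 68.2 and 21.4 CPM in cat2 gox1 after high light and 45.6, 87.5 and 45.2 CPM in cat2 gox2. It was lowest in repeat III in every group, although in cat2 gox2 after high light repeat I was nearly as low. PRE1, a small bHLH promoter of elongation, had -1.18 ± 0.22 under high CO2.

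All 13 tested markers of dividing cells stood below under high CO2, where 34.1% of all genes did. In all 4 groups 6 of them stood below, where 5.44% of all genes did. Their median displacement was -0.82 under high CO2 and -0.46 after high light. PCNA1 (AT1G07370), the sliding clamp of DNA replication, had 9.37, 9.23 and 2.42 CPM in cat2 gox1 under high CO2 and 9.20, 7.67 and 3.83 CPM in cat2 gox2. After high light it had 5.11, 2.49 and 1.64 CPM in cat2 gox1 and 4.15, 5.94 and 3.37 CPM in cat2 gox2. Repeat III was lowest in each group. MCM2 and MCM5, subunits of the replicative helicase, had displacements of -0.96 ± 0.17 and -0.88 ± 0.16 over all groups. In pooled leaves, fewer dividing cells and less RNA per cell cannot be told apart.

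Ribosome synthesis differed between the conditions more than most lists. All 10 tested members stood below under high CO2, where 34.1% of all genes did, with a median displacement of -1.10. After high light none stood above or below in both lines, where 14.4% and 9.99% of all genes did. The median there was -0.14. RPS6 (AT4G31700), a protein of the small ribosomal subunit, had 263, 251 and 69.5 CPM in cat2 gox1 under high CO2 and 274, 172 and 104 CPM in cat2 gox2. In the high light libraries it had 188, 152 and 144 CPM in cat2 gox1 and 129, 191 and 140 CPM in cat2 gox2. Repeat III held less than either other repeat under high CO2, and after high light the repeats lay close together. FIB2, a fibrillarin that modifies ribosomal RNA, had -1.83 ± 0.39 under high CO2 and 0.13 ± 0.35 after high light, and NOP56 had -1.23 ± 0.20 and 0.19 ± 0.19. The group medians were -1.45 in cat2 gox1 and -0.78 in cat2 gox2 under high CO2.

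Further families were taken from the annotated product names after values had been seen, 6 in all. The largest held 288 tested genes with ribosomal protein in the product name, leaving out, among others, names that mention plastids or mitochondria. Some genes of organelle ribosomes may remain among them. Of the 288, 256 stood below under high CO2 (88.9%) and 14 above, where 34.1% and 31.9% of all genes did. Their median displacements were -1.03 there and -0.13 after high light. Histone genes stood below in 31 of 47 cases and above in 7, xyloglucan endotransglucosylases in 14 of 20 and 2, and pectin lyase-like genes in 21 of 41 and 6. Lipid transfer proteins were divided, with 17 of 42 above and 14 below, as were the 4 tonoplast intrinsic proteins, with 1 above and 2 below.

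**Figure D4:**
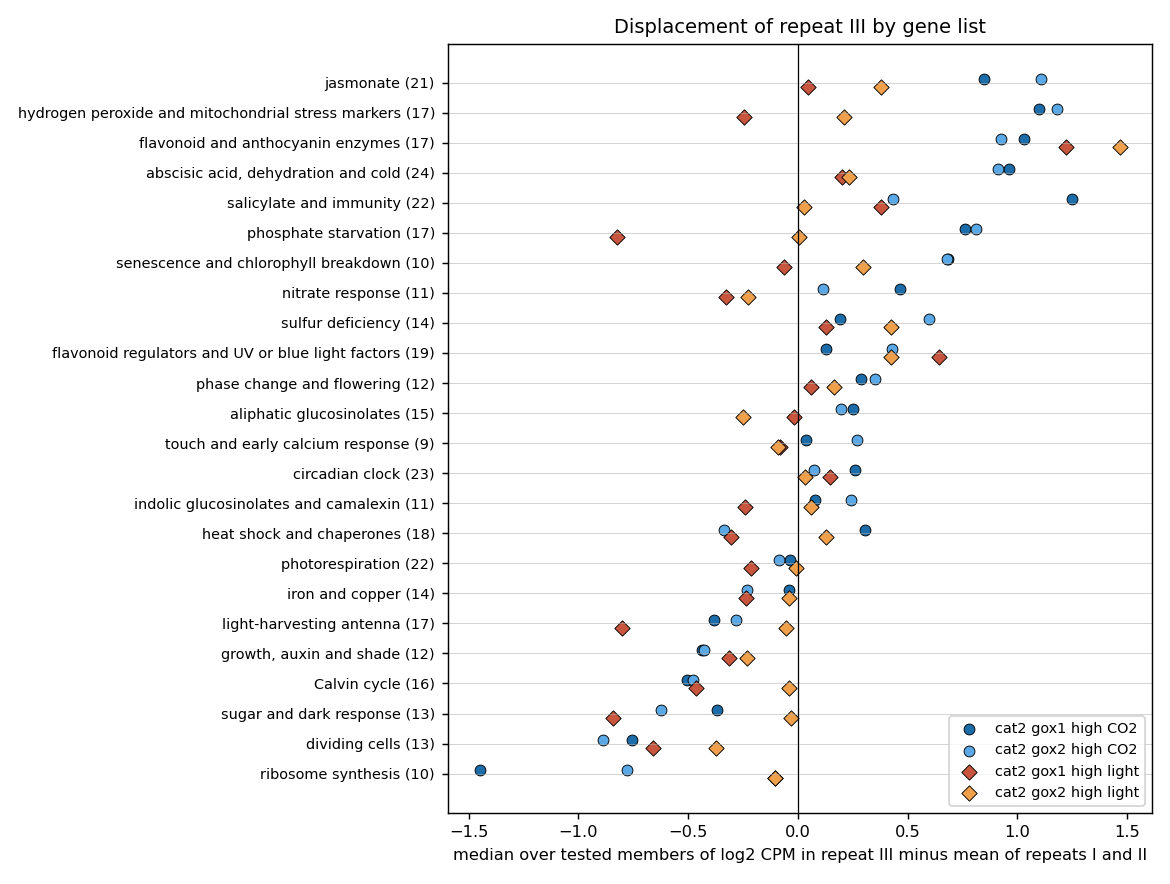
Median displacement (log2 CPM in repeat III minus the mean of repeats I and II) over the tested members of the 24 pathway lists, with the number of tested members in brackets; circles are the 2 lines under high CO2 and diamonds the 2 lines after high light. The flavonoid enzymes have their 4 points between 0.924 and 1.47. The jasmonate, abscisic acid and hydrogen peroxide lists have circles between 0.85 and 1.18 and diamonds between -0.245 and 0.377. Ribosome synthesis has circles at -1.45 and -0.78 with diamonds at -0.11.

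Under high CO2, repeat III held more transcript of the defence and dehydration programmes. Of the abscisic acid, dehydration and cold list, 22 of 24 tested members stood above and 1 below; of the jasmonate list, 17 of 21 stood above and none below; of the salicylate and immunity list, 15 of 22 and none; and of the hydrogen peroxide and mitochondrial stress markers, 11 of 17 and none. Over all genes, 31.9% stood above in this condition and 34.1% below. The median displacements were 0.99, 1.11, 0.93 and 1.07. After high light 3, 3, 3 and 1 members of these lists stood above, where 14.4% of all genes did, and the medians were 0.21, 0.22, 0.19 and 0.01.

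SAG13 (AT2G29350) had 4.09, 5.03 and 46 CPM in cat2 gox1 under high CO2 and 4.26, 2.16 and 25.9 CPM in cat2 gox2, a displacement of 3.18 ± 0.27 in this condition. Its high light values were 323, 395 and 639 CPM in cat2 gox1 and 528, 274 and 615 CPM in cat2 gox2, a displacement of 0.73 ± 0.25. Repeat III was highest in each group, yet its high CO2 level stayed well under that of any high light library. PR1, the marker gene of salicylate responses, had 6.99, 9.79 and 90 CPM in cat2 gox1 under high CO2 and 9.15, 5.01 and 32.7 CPM in cat2 gox2. Its high light libraries lay between 6.27 and 30.9 CPM, so that here the high CO2 libraries of repeat III held more than all those of high light. BGL2, a defence glucanase, had 40.8, 56.4 and 315 CPM in cat2 gox1 under high CO2 and 55.4, 41.2 and 101 CPM in cat2 gox2.

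The salicylate genes were displaced more in cat2 gox1 than in cat2 gox2 under high CO2, with group medians of 1.25 and 0.43. PR5 had 26.6, 25.4 and 97.2 CPM in cat2 gox1 and 45.5, 24.5 and 38.6 CPM in cat2 gox2, where repeat III lay between the others. Some jasmonate genes showed the reverse. VSP2, a vegetative storage protein, had 25.8, 61.9 and 26.3 CPM in cat2 gox1 and 53.9, 35.1 and 820 CPM in cat2 gox2, and VSP1 had 2.02, 10 and 3.57 CPM in cat2 gox1 and 5.15, 2.90 and 256 CPM in cat2 gox2. With 1 repeat III library per line and condition, these differences between the lines have no replicate. Genes of jasmonate synthesis stood above in both lines: OPR3 had 43.7, 44.7 and 83.8 CPM in cat2 gox1 and 61.8, 53.8 and 124 CPM in cat2 gox2. TAT3, a tyrosine aminotransferase induced by jasmonate, had a displacement of 2.86 ± 0.34 under high CO2, and MYC2, the main transcription factor of the pathway, 0.89 ± 0.12.

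Of the dehydration genes, HAI2, a phosphatase that restrains abscisic acid signalling, had 1.35, 1.2 and 5.83 CPM in cat2 gox1 under high CO2 and 1.89, 1.23 and 5.50 CPM in cat2 gox2. LTI78 (RD29A), a classical marker of drought and cold, had 62.8, 63.6 and 212 CPM in cat2 gox1 and 80.1, 56.1 and 193 CPM in cat2 gox2. Both genes were highest in repeat III by a factor above 2, with displacements of 2.01 ± 0.31 and 1.62 ± 0.43. GolS2, which makes the precursor of raffinose sugars, had 2.09 ± 0.42. NCED3, the rate-limiting enzyme of abscisic acid synthesis, had 0.99 ± 0.33. P5CS1, of proline synthesis, was the member that stood below, with -0.63 ± 0.23.

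The hydrogen peroxide markers are the genes most often read out in catalase mutants. AOX1A, the alternative oxidase of mitochondria, had 45.8, 41.8 and 93.6 CPM in cat2 gox1 under high CO2 and 51, 46.4 and 101 CPM in cat2 gox2. After high light it had 637, 624 and 635 CPM in cat2 gox1 and 1016, 921 and 1055 CPM in cat2 gox2. Repeat III thus held more under high CO2, at a level far below high light, and no more after it in cat2 gox1. Its displacement was 1.07 ± 0.10 under high CO2 and 0.07 ± 0.10 after high light. CYP81D8, a P450 of the same response, had 1.35 ± 0.19 and 0.11 ± 0.16. Several members with low counts under high CO2 carried little information: UGT74E2 had 0.517, 0.462 and 0.715 CPM in cat2 gox1 and 1.68, 0.885 and 3.19 CPM in cat2 gox2. Heat shock genes were not displaced together. Under high CO2, 3 of 18 tested members stood above and 4 below, where 31.9% and 34.1% of all genes did. Their median was 0.03.

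Other genes with the largest displacements under high CO2 were NATA1 with 3.59 ± 0.49, DIP2, annotated as an E3 ubiquitin ligase, with 2.99 ± 0.49, and MBP1 with 2.87 ± 0.37. NATA1 had 1.45, 3.46 and 13.7 CPM in cat2 gox1 and 7.89, 1.82 and 100 CPM in cat2 gox2. At the low end, DIN10, a raffinose synthase relative induced in darkness, had 13.2, 22.3 and 0.794 CPM in cat2 gox1 and 6.42, 10.1 and 1.33 CPM in cat2 gox2, a displacement of -3.58 ± 0.62. GASA6, a gibberellin-regulated peptide, had 67.2, 81.5 and 12.2 CPM in cat2 gox1 and 41.2, 58.3 and 8.05 CPM in cat2 gox2. Both were lowest in repeat III in both lines. BZIP61 had -2.35 ± 0.41, the acid phosphatase relative AT5G44020 -2.24 ± 0.44, the lipid transfer relative AT5G48490 -2.28 ± 0.42 and AT3G51870 -2.26 ± 0.33.

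The genes of sugar and dark responses divided. Of 13 tested members, 3 stood above and 8 below under high CO2, where 31.9% and 34.1% of all genes did. GPT2, a glucose phosphate transporter of plastids that rises with sugar, had 26.4, 23.8 and 110 CPM in cat2 gox1 and 66.3, 17 and 172 CPM in cat2 gox2. APL3, a subunit of the starch-making ADP-glucose pyrophosphorylase that is induced by sugar, had 92.5, 99.5 and 203 CPM in cat2 gox1 and 115, 94.7 and 228 CPM in cat2 gox2. Both stood above in all 4 groups, with 1.41 ± 0.34 and 1.01 ± 0.13. Genes that sugar holds down lay lower: BT2 had -2.08 ± 0.48 over all groups, ASN1, the dark-induced asparagine synthetase, -1.23 ± 0.45 and SEN1 -1.10 ± 0.41. TPS9 and TPS11, trehalose phosphate synthase relatives, had -0.77 ± 0.14 and -0.70 ± 0.16.

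Photosynthesis genes lay lower in repeat III by small amounts, and in high light this rested on cat2 gox1. Of the light-harvesting antenna, 12 of 17 tested genes stood below under high CO2 and 3 in all 4 groups, and of the Calvin cycle 14 of 16 and 4. The shares of all genes were 34.1% and 5.44%. The group medians of the antenna were -0.38 and -0.28 under high CO2 and -0.80 in cat2 gox1 and -0.05 in cat2 gox2 after high light. Those of the Calvin cycle were -0.51, -0.48, -0.46 and -0.04 in the same order. RBCS1A had 27430, 28580 and 16140 CPM in cat2 gox1 under high CO2 and 30250, 33180 and 18970 CPM in cat2 gox2. In the high light libraries it had 14210, 14400 and 8647 CPM in cat2 gox1 and 10320, 13980 and 10240 CPM in cat2 gox2, where repeats I and III were alike. LHB1B1, one of the copies of the LHCB1 antenna protein, had the largest displacement of the antenna, with -1.07 ± 0.20. The LHCB1 and RBCS copies are near-identical, and how shared reads were placed is not given in the sources used here, so their single values are uncertain.

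The share of counts in the 50 most abundant genes moved with these lists. Under high CO2 it was 23.4% and 24.6% in repeat III and between 26.8% and 29.6% in repeats I and II. After high light it was 15.0% in repeat III of cat2 gox1 against 18% and 18.5%, and 16.7% in repeat III of cat2 gox2 against 16.8% and 18%. CPM are relative, and the part of this share in the lists was not tested. With library totals alone as the scale, the median displacement of all genes was 0.17 under high CO2, 0.06 after high light and 0.11 over all groups.

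Photorespiration, the pathway of the mutated genes, was split, with 5 of 22 tested genes above and 9 below under high CO2. The shares of all genes there were 31.9% and 34.1%. The median displacement of the list was -0.06, which was 0.12 with library totals alone as the scale. GLDP1, a subunit of glycine decarboxylase, had 3351, 3049 and 4020 CPM in cat2 gox1 and 3498, 3478 and 4351 CPM in cat2 gox2, while GS2, which captures the released ammonia, had 3011, 2903 and 2054 CPM and 3048, 3000 and 2153 CPM. One lay higher in repeat III and the other lower, in both lines. GOX3, a glycolate oxidase relative of low level, had a displacement of 2.75 ± 0.48 under high CO2 at 0.0983 to 1.59 CPM. CAT2 had 0.00 ± 0.08 over all groups and GOX1 -0.08 ± 0.11.

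Senescence and chlorophyll breakdown genes stood above under high CO2 in 9 of 10 tested cases and in all 4 groups in 4. The shares of all genes were 31.9% and 8.19%. PPH, which takes phytol off chlorophyll, had 70.7, 65.3 and 151 CPM in cat2 gox1 and 76.9, 62.8 and 156 CPM in cat2 gox2, and NAC6 (ORE1), a master factor of leaf ageing, had 2.79, 2.82 and 11 CPM and 2.84, 1.82 and 8.89 CPM. SAG12, the marker of late senescence, had too few counts to be tested. Among flowering genes 8 of 12 stood above under high CO2. FT, the mobile flowering signal made in leaves, had 5.74, 3.32 and 8.85 CPM in cat2 gox1 under high CO2 and 4.73, 4.33 and 14.8 CPM in cat2 gox2, and it stood above in all 4 groups, with 1.02 ± 0.29. Its relative TSF had 1.4 ± 0.33. The microRNA-regulated SPL4 and SPL5 had 0.53 ± 0.20 and 0.48 ± 0.22, and SOC1, named AGL20 in the reference, 0.08 ± 0.12.

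The circadian clock was displaced little. Of 23 tested genes 12 stood above and 2 below under high CO2, with a median of 0.18, and 2 stood above in all groups. The shares of all genes were 31.9%, 34.1% and 8.19% in turn. The morning genes CCA1 and LHY had 0.34 ± 0.10 and 0.37 ± 0.10 over all groups, and the evening genes ELF4 and PCL1 (LUX) 0.52 ± 0.18 and -0.23 ± 0.12. Hours of sampling were not used here.

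Nutrient lists went their own ways. For comparison, 31.9% of all genes stood above and 34.1% below under high CO2, and 14.4% above after high light. Of the phosphate starvation list, 14 of 17 tested members stood above and 1 below under high CO2, with a median of 0.76 for cat2 gox1 and 0.81 for cat2 gox2, while after high light the medians were -0.83 and 0.00. The difference in cat2 gox1 after high light came with repeat II: SRG3 (GDPD1), a phosphodiesterase that frees phosphate from lipids, had 8.29, 65.2 and 7.20 CPM there, and SQD2, of sulfolipid synthesis, had 45.5, 97 and 44.4 CPM. Repeats I and III were alike and repeat II was high. Under high CO2 SQD2 had 209, 210 and 319 CPM in cat2 gox1 and 150, 154 and 256 CPM in cat2 gox2. In the nitrate list 6 of 11 stood above and 1 below under high CO2; GSR 1 (GLN1.1), a cytosolic glutamine synthetase of ageing and stressed leaves, had 53.8, 42.5 and 224 CPM in cat2 gox1 and 103, 59.7 and 239 CPM in cat2 gox2. Of the sulfur deficiency list 4 of 14 stood above under high CO2, near the share over all genes, and 5 after high light. In the iron and copper list 4 of 14 stood above and 7 below under high CO2, and the ferritin FER3, an iron store, had 70.4, 74.6 and 22.2 CPM in cat2 gox1 and 86.5, 79.1 and 37.4 CPM in cat2 gox2.

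The touch and calcium list had 3 of 9 members above and 3 below under high CO2, near the 31.9% and 34.1% of all genes. TCH4, a touch-induced xyloglucan enzyme, had -1.2 ± 0.38 over all groups. Of the aliphatic glucosinolate genes 9 of 15 stood above under high CO2 and 2 below after high light, where 9.99% of all genes stood below. The medians were 0.26 and -0.25, and the second was 0.05 without repeat I of cat2 gox1 after high light. Of the indolic glucosinolate and camalexin genes 4 of 11 stood above and 1 below under high CO2; PAD3, the last enzyme of camalexin synthesis, had 1.71, 3.09 and 19.1 CPM in cat2 gox1 and 3.73, 1.08 and 4.76 CPM in cat2 gox2.

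After high light, repeat III had fewer genes of its own. The 6 largest positive displacements were those of NUDT24 with 2.24 ± 0.46, MYB90 with 2.11 ± 0.86, the transporter BOR5 with 2.00 ± 0.43, ELIP1 with 1.88 ± 0.30, the methyltransferase AT4G35160 with 1.77 ± 0.44 and MBP1 with 1.68 ± 0.35. BOR5 had 17.1, 9.26 and 64.3 CPM in cat2 gox1 and 6.86, 5.22 and 19 CPM in cat2 gox2. At the other end stood IPS1 and AT4, non-coding RNAs of phosphate starvation, BT2, GOX2, AGP2, an arabinogalactan protein, and AT3G16670. IPS1 had 0.258, 24.4 and 0.0421 CPM in cat2 gox1 and 3.69, 4.74 and 2.39 CPM in cat2 gox2, and its displacement of -2.51 ± 1.36 rests on repeat II of cat2 gox1. GOX2, with -1.52 ± 0.88, had 7.48, 122 and 6.98 CPM in cat2 gox2 and rests on the library labelled repeat II.

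On opposite sides in the 2 conditions, in both lines, stood 539 genes (2.84%): 212 above under high CO2 and below after high light (1.12%), and 327 the reverse (1.72%). AGP2 had 1.29, 2.08 and 2.54 CPM in cat2 gox1 under high CO2 and 1.37, 1.92 and 2.65 CPM in cat2 gox2, but 14.8, 14.9 and 4.46 CPM and 24, 59.1 and 20.9 CPM after high light. PPCK1, the kinase that activates PEP carboxylase, had 113, 116 and 208 CPM and 93.1, 107 and 137 CPM under high CO2, but 84.8, 146 and 32.4 CPM and 102, 104 and 71.5 CPM after high light. The reverse held for AT4G26600, a methyltransferase, with 7.55, 11.3 and 3.18 CPM in cat2 gox1 under high CO2 and 7.26, 4.47 and 2.95 CPM in cat2 gox2, but 11.1, 10.3 and 15.9 CPM and 7.63, 7.51 and 8.12 CPM after high light. These sides were used to choose the genes. In the edgeR fit, the displacement differed between the conditions past an adjusted p of 0.05 (Benjamini-Hochberg) in 2 genes (0.0105%), which is given as a description: NAC019, a stress-induced NAC factor, with 1.99 ± 0.18 under high CO2 and -0.19 after high light, and AT3G51450, with 1.61 ± 0.13 and -0.03. That count rested on single libraries: it was 1867 without the library labelled repeat II of cat2 gox2 after high light and 196 without repeat III of that group, 582 without repeat II and 102 without repeat I of cat2 gox2 under high CO2, and between 0 and 8 without any 1 of the other 8. The 539 genes on opposite sides became 1377 without the same library labelled repeat II, where repeat III of cat2 gox2 has 1 library fewer to lie outside; this count was added after the data had been seen.

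Markers of other cell types were few and mostly divided, apart from those of epidermis and mesophyll. For comparison, 31.9% of all genes stood above and 34.1% below under high CO2. Of guard cell markers, 1 of 6 tested stood above and 1 below under high CO2; of phloem markers, 2 of 6 stood above; of xylem markers, 1 of 3 stood below. Of trichome markers, 1 of 2 stood above. Epidermis markers stood below in 4 of 5 cases under high CO2, with PDF1, a gene of the young epidermis, at -1.60 ± 0.47 and KCS6, of wax synthesis, above at 0.32 ± 0.11. All 6 mesophyll markers stood below under high CO2, with a median of -0.49. Most of them, RBCS1A, RCA, GAPB, LHCB3 and LHCB5, are also on the Calvin cycle or antenna list above, so this is not a separate observation. Of the 6 shoot meristem markers only KNAT6 had enough counts, at 0 to 1.03 CPM. The part of these cell types in the displacements was not tested.

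Repeat III was chosen after it had been seen to stand apart, which also means that repeats I and II had been seen to lie closer, so their difference is a description too. In edgeR's quasi-likelihood test of repeat II minus repeat I over all 4 groups, 0 of the 18967 genes (0%) passed an adjusted p of 0.05 (Benjamini-Hochberg), 659 (3.47%) had an unadjusted p under 0.05, and DESeq2 called 17. In the same fit with repeat as 3 levels, 2321 genes (12.2%) were past that threshold for repeat III against the others, which stands here as a description.

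The study's own question was how each line responds to high light and whether the lines differ. These tests with all 12 libraries do not use the repeat number. Leaving out the repeat that was chosen for its distance lowers the spread within groups by construction, so the counts without it are a description. Each repeat showed the response on its own: in cat2 gox1, 27.9%, 34.1% and 26.2% of genes differed at least 2-fold between high light and high CO2 in repeats I, II and III, and in cat2 gox2, 36.6%, 31.0% and 29.3%. Repeat III had the smallest share in both lines. With all 12 libraries, edgeR's quasi-likelihood test with Benjamini-Hochberg adjustment called 9880 genes (52.1%) in cat2 gox1, 4858 higher (25.6%) and 5022 lower (26.5%), and 10793 genes (56.9%) in cat2 gox2, 5260 higher (27.7%) and 5533 lower (29.2%).

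With the 8 libraries of repeats I and II alone the same test called 10547 and 11015 genes, more than with all 12. With repeats I and III it called 5707 and 7655, and with II and III 5831 and 6619. Of the genes called with all 12 libraries, 8795 in cat2 gox1 (89.0%) and 9637 in cat2 gox2 (89.3%) were also called with repeats I and II alone, and none changed sign. Without repeat III, 5699 calls were higher against 4848 lower in cat2 gox1, and 6012 against 5003 in cat2 gox2.

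**Figure D5:**
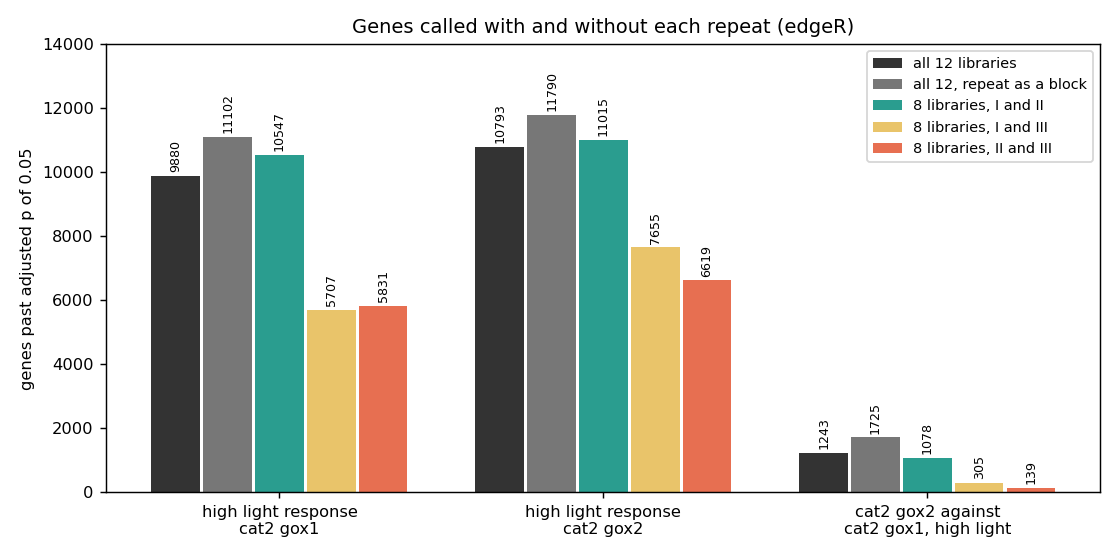
Number of genes past an adjusted p of 0.05 in edgeR's quasi-likelihood test for the high light response of each line and for cat2 gox2 against cat2 gox1 after high light, with all 12 libraries, with the repeat as a block, and with 2 repeats at a time. Bars start at 0, and those with repeats I and II (10547, 11015 and 1078) stand above those with I and III (5707, 7655 and 305) and with II and III (5831, 6619 and 139).

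Over all genes, 4858 (25.6%) were called higher in cat2 gox1 with all 12 libraries and 5699 with repeats I and II alone. In cat2 gox2 these counts were 5260 (27.7%) and 6012. Genes called lower went from 5022 (26.5%) to 4848 in cat2 gox1 and from 5533 (29.2%) to 5003 in cat2 gox2. The lists displaced under high CO2 are given beside these counts. With all 12 libraries, 8 of 21 tested jasmonate genes were called higher after high light in cat2 gox2, and 16 with repeats I and II alone; in cat2 gox1 the counts were 16 and 19. For the salicylate list of 22 they were 16 and 21 in cat2 gox1, and 18 with 19 in the other line. For the dehydration list of 24 they were 16 and 20 in cat2 gox1, and 15 with 20 in the other line. For the senescence list of 10, the counts were 5 and 9 in cat2 gox1, and 5 with 8 in the other line. Flavonoid enzymes called lower after high light numbered 8 of 17 with all 12 libraries and 13 with repeats I and II in cat2 gox1, and 11 with 14 in the other line. The 17 hydrogen peroxide markers were called higher in both lines with and without repeat III. Some counts of other displaced lists stayed the same. In cat2 gox1 1 of 10 ribosome synthesis genes and 1 of 17 phosphate starvation genes were called higher either way. In cat2 gox2 11 of 12 growth genes were called lower either way. Other counts moved: in cat2 gox1, dividing cell markers called lower went from 1 to 4 of 13 without repeat III. Phosphate starvation genes called lower there went from 5 to 3.

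With the repeat as a block, which pairs libraries by repeat number and keeps repeat III, several lists had more members called than without it. Among them were the flavonoid, jasmonate, salicylate, dehydration and senescence lists. The hydrogen peroxide markers called higher stayed at 17 in both lines. Phosphate starvation genes called lower in cat2 gox1 went from 5 to 4. Calls over all genes rose too, from 9880 to 11102 (58.5%) in cat2 gox1 and from 10793 to 11790 (62.2%) in cat2 gox2. With the block, 5380 and 5636 of these were higher and 5722 and 6154 lower. The rise is thus not particular to these lists. Flavonoid enzymes were then called lower in 16 of 17 cases in both lines. For cat2 gox1 and cat2 gox2 in turn, the members called higher numbered 17 and 11 of the jasmonate list, 19 and 19 of the salicylate list, 20 and 17 of the dehydration list, and 8 and 7 of the senescence list.

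SAG13, PR1 and TAT3, named for their large displacement under high CO2, had the following light responses with all 12 libraries and no block. For PR1 only cat2 gox1 is given. SAG13 rose after high light by a log2 fold change of 4.61 ± 1.09 in cat2 gox1 (edgeR, Benjamini-Hochberg adjusted p = 0.0046) and 5.45 ± 1.14 in cat2 gox2 (adjusted p = 0.0018). PR1 had a light response of -0.56 ± 0.93 in cat2 gox1 and did not pass the test (edgeR adjusted p = 0.63), and TAT3 had 1.86 ± 0.92 in cat2 gox1 (edgeR adjusted p = 0.11) and 2.88 ± 0.95 in cat2 gox2 (edgeR adjusted p = 0.023).

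After high light, cat2 gox2 differed from cat2 gox1 in 1243 genes (6.55%) with all 12 libraries, 1000 of them higher in cat2 gox2 (5.27%) and 243 lower (1.28%), in the same edgeR test. With repeats I and II alone 1078 genes were called, of which 819 were shared, 65.9% of the first list and 76% of the second, with none of opposite sign. With repeats I and III 305 were called, and with II and III 139. Leaving out 1 high light library gave 757 without repeat I of cat2 gox1, 721 without its repeat III, 776 without the library labelled repeat II of cat2 gox2 and 727 without its repeat III. Under high CO2 the lines differed in 3 genes (0.0158%): GOX1, higher in cat2 gox2 by 2.98 ± 0.16 (log2, edgeR adjusted p = 2.2e-05), and the loci AT3G29644 and AT3G60170. With repeats I and II alone 1 gene was called, with I and III 2, and with II and III 0.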

How the data were processed

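RNA of 12 leaf libraries was made into stranded mRNA libraries per the labels' protocols. Trim Galore 0.3.3, TopHat2 2.1.0, Subread 1.4.6 (featureCounts) and the TAIR10 build are named in the submitters' processing notes; these sources do not give the strand setting or the treatment of multi-mapped reads. The deposited values are raw counts per locus by the authors, with no normalization: 33604 entries, of which 2 name no gene. The 279 organellar loci hold no count.

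Genes with enough counts (edgeR filter, minimum count 10, minimum total 15) numbered 18967 and held 99.96% of counts. CPM used TMM-scaled totals. edgeR 4.0.16 (quasi-likelihood, R 4.3.3, limma 3.58.1) was fitted on all 12 libraries and adjusted by Benjamini-Hochberg over all tested genes; DESeq2 1.42.0 was an alternative. The displacement fit had the 4 groups as a term; light and line responses were fitted with groups alone. The scripts were tested on simulated data. The log2 values carry a standard error of the fit, and 3 libraries per group limit it. Symbols came from the RefSeq annotation of TAIR10.1, which matched 32835 loci. Coordinates are of TAIR10.1.

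The members and all gene lists were chosen with earlier results of these data known. The rule for naming picked GOX1, GOX2 and CAT2. It also picked the largest displacements among genes of at least 5 CPM outside the range of the other repeats. These were 10 each way over all groups, 6 each way within a condition and 5 each way between conditions. From the lists it picked up to 3 highest and 3 lowest members of each, and all members of the flavonoid lists. Not every gene picked is named in the text, and several flavonoid list members are left out. Other list members named, such as VSP1, PR5 and AOX1A, were chosen after their values were seen, as were the product families, the order of repeats III, I and II, and the promoters. The labels say the set-up was repeated as a whole. The repeat number was taken to mark a shared set-up, which the labels do not state for single libraries. Deviations of same-numbered libraries correlated between -0.211 and 0.765, and those of differently numbered libraries between -0.636 and 0.497. P-values measure the spread between pools of plants.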

Additional observations from a re-analysis of the deposited data

Results flagged for a closer look

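Repeat III lay on opposite sides of repeats I and II in the 2 conditions, for the following genes in both lines and for the group medians of the following lists. Each value is the displacement after high light minus that under high CO2 on the log2 scale. In the edgeR fit of that difference none of the 10 genes was past an adjusted p of 0.05 (Benjamini-Hochberg), where 2 of 18967 genes were; the difference of the list medians was not tested. It was -3.25 for AT3G13610, -2.51 for AT1G51890, -1.93 for AGP2, -1.89 for AT4 and -1.79 for PPCK1. It was 1.65 for AT4G26600, 1.5 for AT5G05990, 1.44 for AT4G38100, 1.39 for AT1G09900 and 1.3 for AT2G19870. Of the gene lists, the median went opposite ways in the conditions for the nitrate response (-0.568), the touch and early calcium response (-0.237) and aliphatic glucosinolates (-0.357). The touch list's high light median of -0.10 became 0.00050 without repeat II of cat2 gox1 after high light and 0.0031 without the library labelled repeat II of cat2 gox2, so that its opposite direction was lost, as was that of aliphatic glucosinolates without repeat I of cat2 gox1 after high light (0.05).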

How the results depend on the processing

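The cause of the following changes was not tested. The difference of displacement between conditions was past the threshold for 2 genes, NAC019 and AT3G51450, for 163 with DESeq2's size factors, 1016 with no filter on low counts and 1494 with DESeq2. After high light the edgeR count of 0 became 36 with no filter and 101 with DESeq2, and the 2-fold count of 254 became 646 with no filter and 117 with a minimum count of 50, which left 192 over all groups. DESeq2 called 17 genes for repeat II minus I and 5 for the lines under high CO2. With 2 repeats alone, fewer libraries were fitted: the light response was called in 5707 and 5831 genes in cat2 gox1 and 6619 in cat2 gox2, the line difference after high light in 305 and 139, and that under high CO2 in 1 and 0.

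Leaving out each library in turn, the repeat III counts ranged from 0 to 4863 over all groups (263 to 830 by fold and range), from 86 to 6968 under high CO2 (1879 to 2862), from 0 to 480 after high light (279 to 1031) and from 0 to 1867 for the difference. Repeat II minus I gave 0 to 1, the light response 8203 to 10739 and 9282 to 11467, and the line difference 2 to 4 under high CO2 and 721 to 1624 after high light. With the repeat as a block, which pairs libraries by repeat number, the light response was called in 11102 and 11790 genes. The line difference was called in 3 and 1725, and no count moved by over 1.5 times. No named gene's displacement changed sign among those recomputed. List medians near 0 did: 5 under another scaling, none above 0.0927 in size, and 31 with 1 library left out, the largest being that of aliphatic glucosinolates after high light, which went from -0.25 to 0.05 without repeat I of cat2 gox1. Under other scalings 88 of 88 values of named genes and 112 of 144 list medians moved by less than the spread. One repeat III library per group is the main limit: a displacement in 1 line and condition has no replicate.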
